A study of Mus musculus with 12 samples.

Results

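The genes described here encode 10 m6A reader proteins: Ythdf1, Ythdf2, Ythdf3, Ythdc1, Ythdc2, Igf2bp1, Igf2bp2, Igf2bp3, Hnrnpa2b1 and Fmr1. They were chosen by name as the established readers of this mark, and all 10 were found among the 25239 genes of the expression table, of which 16167 had a p-value. The cells were HT22, a mouse hippocampal neuronal line. They were treated with 800 μM mesaconitine (MA), an alkaloid of Aconitum plants, for 72 h, or left untreated for 72 h as control. For each condition 3 libraries were made from m6A-immunoprecipitated RNA (IP) and 3 from the RNA before precipitation (input), which gives 12 libraries. The tables hold results fitted over each group and reads pooled within it, with no value of a single library, so the spread between libraries is known only through the standard errors in them.

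N6-methyladenosine, m6A, is laid down on mRNA by a methyltransferase complex (writers) and removed by demethylases (erasers). Readers are the proteins that bind methylated RNA, or RNA whose fold changes when it is methylated, and pass the mark on to splicing, export, translation, storage or decay. The proteins of the YTHDF and YTHDC families hold the mark in an aromatic pocket of their YTH domain, while the IGF2BP proteins, HNRNPA2B1 and FMRP bind RNA through KH or RRM domains.

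The expression table does not name the numerator of its fold change. The sign was reversed for all genes so that positive values are read as higher after MA, and every direction of an mRNA below depends on that reading. The study's own list of m6A regulators carries the sign as deposited, so the readers, writers and erasers in it point the other way there, Ythdf3, Igf2bp2, Virma, Mettl14, Rbm15b and Alkbh5 among them. The paper reports by quantitative PCR that multiple autophagy pathway genes rose after MA. Of the genes with primers listed there, Rab7, Lamp1, Ctsb, Lamp2 and Ctsd had reversed log2 fold changes of 2.20, 0.72, 0.64, 0.57 and 0.57. The value of Tsc1, also with primers there, is not given here. The pooled reads under m6A peaks, whose columns do name the groups, gave another look at the sign. Across 2470 peaks on genes of both tables, Spearman's rho between the reversed fold change and the MA over control ratio of IP reads was 0.277, and it was 0.589 over the 166 peaks whose gene had a DESeq2 p-value under 0.0001. With input reads the same coefficients were 0.0101 and 0.0251. These are descriptions across peaks, many on the same gene and all from the same libraries. Input reads, taken before precipitation, hardly followed the fold change. Which libraries entered the expression fit is not stated, so the comparison with peak reads does not settle the sign.

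Reader mRNAs moved little after MA. At an unadjusted p-value under 0.05 by the deposited DESeq2 test, Ythdf3 fell to 0.771 of its control level and Igf2bp2 rose 1.18-fold, and the other 8 did not pass. These 2 of 10 stand beside 20.9% of all tested genes, 9.98% higher and 10.9% lower, and beside 37.8% of the 5184 tested genes whose level was at or above that of the lowest reader. With a change of more than 1.2-fold required as well, 1 reader remained, Ythdf3, against 13.9% of all tested genes. After Benjamini-Hochberg adjustment by DESeq2 over all genes, 0 of 10 readers passed an adjusted p of 0.05, against 15.3% of the 13427 genes with an adjusted value. The fitted log2 changes were below 0 for 7 readers and above 0 for 3, and their median was -0.05, beside -0.01 and 51.8% below 0 for all tested genes.

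**Figure D1:**
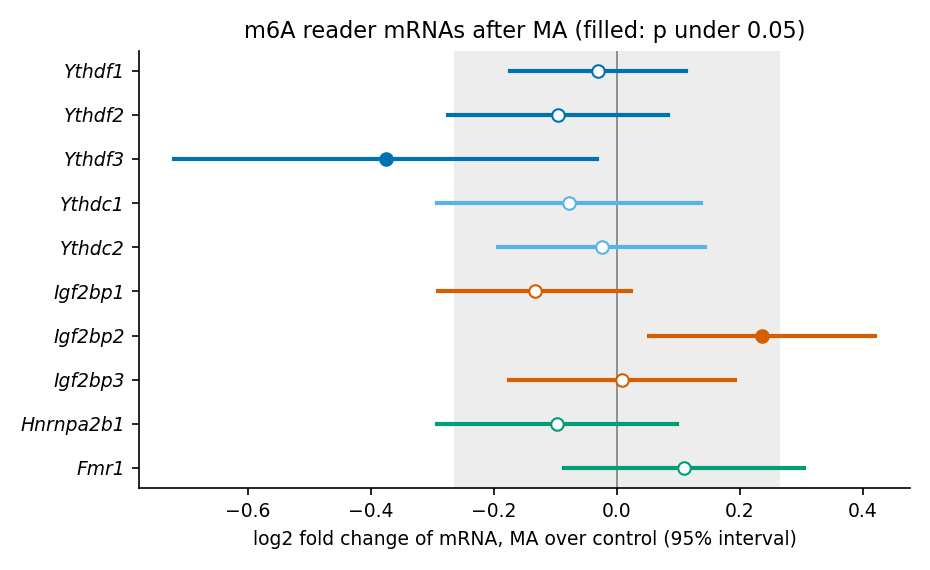
Fitted log2 fold change of the 10 reader mRNAs, MA over control, on the horizontal axis, with the 95% interval as a line and 1 gene in each row. The grey band is a change of less than 1.2-fold in either direction, and filled points have an unadjusted p-value under 0.05. The intervals of Ythdf3 and Igf2bp2 leave out 0, and both reach into the band.

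All readers were among the more abundant genes of the table. The base mean, the mean of the counts normalised by library over all fitted libraries, ran from 1548 for Ythdc2 to 34674 for Hnrnpa2b1, so each reader lay above at least 67.9% of the tested genes. Per kilobase of the longest coding transcript, Hnrnpa2b1 was far ahead at 20066 normalised counts. Ythdc1, Igf2bp2 and Fmr1 followed at 3000.0, 2361 and 2142. Igf2bp3 had 927, Ythdf3 653, Ythdf1 640, Ythdf2 462, Igf2bp1 300.3 and Ythdc2 215. Of the 9 pairs of neighbours in that order, 8 differed beyond the 95% interval of their difference. The exception was Ythdf3 and Ythdf1, whose levels differed by 0.03 ± 0.09 (SE) on the log2 scale. The choice of transcript length enters each of these levels and is not part of that error.

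The cytoplasmic YTHDF proteins are close relatives that recruit deadenylation and decay factors to methylated mRNAs and have been tied to translation as well. Their coding sequences were 72.1% identical between Ythdf1 and Ythdf2, 72.2% between Ythdf1 and Ythdf3 and 73.0% between Ythdf2 and Ythdf3. The stretch of 90 coding bases in which Ythdf1 and Ythdf2 together best match Ythdf3 is shown, since reads there would be harder to tell from those of Ythdf3. It was searched codon by codon, without gaps and within single exons of Ythdf3. Ythdf1 was not matched to Ythdf2 in this search. It lies in a single exon of each gene. In the mm10 genome it is at chr3:16204939-16205028 on the plus strand for Ythdf3, at chr2:180911083-180911172 on the minus strand for Ythdf1 and at chr4:132204528-132204617 on the minus strand for Ythdf2, read in the direction of transcription. Capitals mark bases that differ from Ythdf3.
Ythdf3: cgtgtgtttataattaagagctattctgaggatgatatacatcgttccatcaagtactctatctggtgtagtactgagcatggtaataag
Ythdf1: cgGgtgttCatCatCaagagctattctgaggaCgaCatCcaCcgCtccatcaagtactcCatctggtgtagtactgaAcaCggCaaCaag
Ythdf2: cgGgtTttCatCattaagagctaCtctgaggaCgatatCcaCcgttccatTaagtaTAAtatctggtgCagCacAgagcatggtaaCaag
Ythdf1 differed from Ythdf3 at 14 of these 90 bases and Ythdf2 at 16, and the longest identical run between any pair of the 3 coding sequences was 22 bases. No stretch of 50 bases of the Ythdf1 or Ythdf3 transcript was found in a transcript of another gene. Of those of Ythdf2, 8.55% also occurred in the processed pseudogenes Gm6823 and Gm8401 on chromosome X, so its counts may be shared with those copies.

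Ythdf3 (chr3:16183212-16217037) had a base mean of 3333 normalised counts. With groups of equal size this and the fitted fold correspond to 3765 in control and 2902 after MA. The log2 fold change was -0.38 ± 0.18 (SE), with a 95% interval from -0.72 to -0.03, an unadjusted p of 0.0320 and an adjusted p of 0.148 by DESeq2. It was the reader with the largest change in size and also the one with the largest standard error. Among the 3655 tested genes within 2-fold of its level, 94.9% had a smaller standard error, and their median was 0.08. If the fit held 3 libraries in each group, that error corresponds to a coefficient of variation of 14.8%, against 5.76% to 9.23% for the other 9 readers. These coefficients are derived from the fitted errors and are not a spread measured on single libraries. At its standard error a change of Ythdf3 had to exceed 1.27-fold to pass the threshold, whereas 1.10-fold was enough for Ythdf1.

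**Figure D2:**
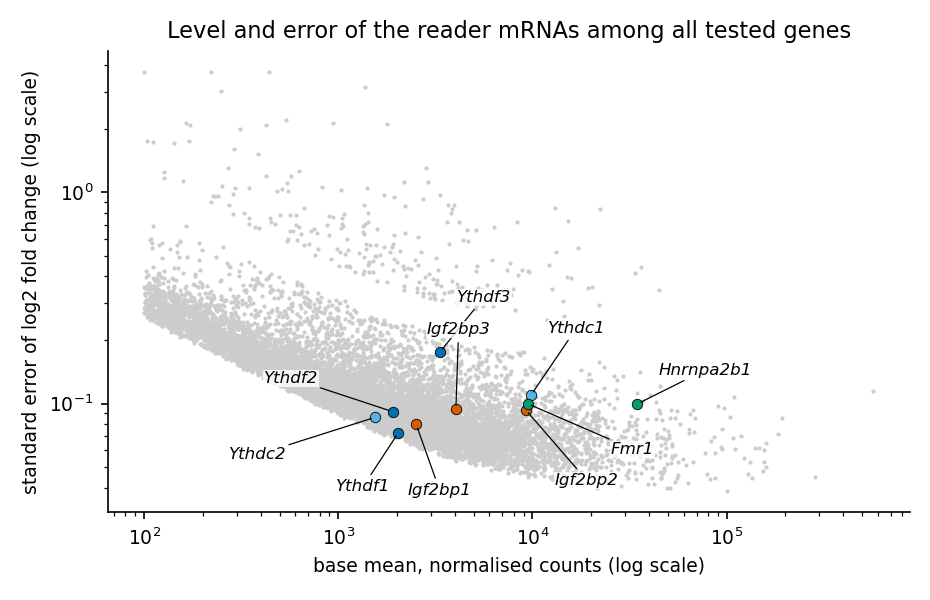
Standard error of the log2 fold change (vertical, log scale) against base mean in normalised counts (horizontal, log scale) for all tested genes with a base mean of at least 100 (grey), with the 10 readers marked. Ythdf3 sits high among the genes within 2-fold of its level, with 94.9% of them below it.

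Ythdf1 (chr2:180904377-180920949), linked to translation of methylated mRNAs, was at 2058 normalised counts in control and 2015 after MA. Its log2 change was -0.03 ± 0.07 (SE), and the interval from -0.17 to 0.11 stayed within 1.2-fold. Ythdf2 (chr4:132184912-132212303), the best known decay-promoting reader, was at 1971 in control and 1845 after MA. Its log2 change of -0.10 ± 0.09 (SE) had an interval from -0.28 to 0.08, which reaches past a fall of 1.2-fold. The change of Ythdf3 differed from that of Ythdf1 by -0.34, with an interval from -0.72 to 0.03, and from that of Ythdf2 by -0.28, with an interval from -0.67 to 0.11. Both intervals hold 0, so a change particular to Ythdf3 within the trio was not shown. They treat the errors of both genes as independent, which genes measured in the same libraries need not have.

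The YTHDC proteins differ from the YTHDF trio in place and form. Ythdc1 (chr5:86804221-86836659) encodes the nuclear reader that acts in splicing and export. It was at 10072 normalised counts in control and 9542 after MA, a log2 change of -0.08 ± 0.11 (SE) with an interval from -0.29 to 0.14. Of its 50-base stretches, 18.2% are also part of Gm43055, an annotated long noncoding RNA gene that overlaps Ythdc1 on the same strand. Ythdc2 (chr18:44827746-44889724) encodes an RNA helicase with a YTH domain that is needed in germ cells. At 1561 normalised counts in control and 1534 after MA it had the smallest level of the 10 readers. Its log2 change of -0.02 ± 0.09 (SE) lay in an interval from -0.19 to 0.14, within 1.2-fold. The changes of Ythdc1 and Ythdc2 differed by -0.05, with an interval from -0.33 to 0.22.

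The IGF2BP proteins stabilise methylated mRNAs and are best known from embryonic and tumour cells. All 3 were expressed in HT22 cells, and Igf2bp2 was the one that passed the test. Igf2bp2 (chr16:22059009-22163299) was at 8457 normalised counts in control and 9958 after MA. Its log2 fold change was 0.24 ± 0.09 (SE), with an interval from 0.05 to 0.42, an unadjusted p of 0.0117 and an adjusted p of 0.0701 by DESeq2. That was the smallest p-value of the 10 readers, and 2253 tested genes had a smaller one. Igf2bp1 (chr11:95957163-96005940) was at 2633 in control and 2400 after MA, a log2 change of -0.13 ± 0.08 (SE) with an unadjusted p of 0.0935 by DESeq2. Igf2bp3 (chr6:49085223-49214957) was at 4018 in control and 4040 after MA, with the smallest change of all readers, 0.01 ± 0.09 (SE), and an interval within 1.2-fold, from -0.18 to 0.19.

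Of 7 pairs compared within the YTHDF, YTHDC and IGF2BP families, the difference left out 0 in 1. It was Igf2bp2 minus Igf2bp1, 0.37 on the log2 scale with an interval from 0.13 to 0.61, unadjusted for the 7 pairs. Igf2bp2 minus Igf2bp3 was 0.23, with an interval from -0.03 to 0.49. The coding sequences of these 3 genes were 71.3% to 71.6% identical in pairs, with no identical run over 20 bases. Shared 50-base stretches were absent from the Igf2bp2 and Igf2bp3 transcripts and made up 0.516% of Igf2bp1, where the microRNA gene Mir3063 lies in it.

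Hnrnpa2b1 (chr6:51460932-51469894) encodes an abundant nuclear ribonucleoprotein that acts in splicing and microRNA processing and whose binding is favoured where m6A opens the RNA fold. It was at 35842 normalised counts in control and 33506 after MA, a log2 change of -0.10 ± 0.10 (SE) with an interval from -0.29 to 0.10. The processed pseudogene Gm5778 shares 2.44% of its 50-base stretches. Fmr1 (chrX:68678541-68717963) encodes FMRP, a translational repressor in neurons whose loss causes fragile X syndrome. It was at 9086 in control and 9799 after MA, a log2 change of 0.11 ± 0.10 (SE) with an interval from -0.09 to 0.30.

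The width of the intervals set how small a change could be seen. They lay within 1.2-fold for 3 readers, Ythdf1, Ythdc2 and Igf2bp3, and within 1.5-fold for 9, all but Ythdf3. For 5 readers the fitted change was smaller than its own standard error. The standard errors of 5 readers, Ythdf3, Ythdc1, Igf2bp2, Hnrnpa2b1 and Fmr1, were above the 80th percentile of genes within 2-fold of their level. The median absolute log2 change of the readers was 0.10, against 0.12 for the 5184 genes at or above the lowest reader's level, whose median standard error was 0.08 against 0.09 for the readers.

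The m6A peak table held 2643 peaks, and 1 of them was on a reader mRNA, that of Ythdf3. The 9 other readers had none in it. It holds the peaks compared between groups, and peaks called outside it were not analysed here. A listed peak was found for 13.4% of all tested genes and for 17.5% of those at or above the lowest reader's level, so 1 of 10 is near the background. A gene with no peak in this table is not shown to be unmethylated.

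The Ythdf3 peak was at chr3:16183165-16183339 on the plus strand, a single block of 175 bases. Its first base is the first base of all 5 curated RefSeq mRNAs of Ythdf3, and 1.29% of all peaks, 34 of 2643, begin in this way at the first base of a RefSeq transcript. It thus covers the start of exon 1 and lies wholly in the 5′ untranslated region, ending 158 bases before the first coding base at position 16183497. In the GENCODE annotation the gene begins 47 bases further in, so the other 128 bases of the peak lie in its annotated 5′ untranslated region. GC content was 69.7%. The motif RRACH, where R is a purine and H any base but G, is the sequence in which most m6A is found. It was searched on the transcribed strand, and the peak held 2 matches, each shown in a window of 30 bases with the match in capitals.
First match, chr3:16183165-16183194: gagtgggggagGAACTgcgaggtgtgcgtg
Second match, chr3:16183189-16183218: tgcgtggacgtcAGACTggatagcggaagg
RRACH is short and common. In windows of 175 bases at the centres of 2611 single-block peaks, 89.7% held a match and the median number was 2, the number found here. GGACT, its form most often methylated, was not in the Ythdf3 peak and was in 15.4% of those windows.

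Reads pooled over the libraries of a group numbered 196 in control input, 182 in control IP, 126 in MA input and 190 in MA IP in the Ythdf3 peak. Each was above the median peak of its column, which held 57, 57, 40 and 81 reads. The IP share of the peak's reads was 48.1% in control, with a 95% Wilson interval from 43.2% to 53.2%, and 60.1% after MA, with an interval from 54.6% to 65.4%. These intervals cover counting error only and do not correct for library depth. The IP reads over all peaks numbered 267002 in control and 359889 after MA, while the input reads numbered 288659 and 214778. The uncorrected log2 ratio of IP to input in the Ythdf3 peak was -0.11 in control and 0.59 after MA, a difference of 0.70, and the median peak differed by 0.91.

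The deposited log2 ratios of IP to input for this peak, scaled by the authors, were 0.28 in control and 0.44 after MA. The change fitted by exomePeak2 was 0.13, with an unadjusted p of 0.608 and an adjusted p of 0.775 from its model across all peaks. No change of the IP to input ratio was thus detected at the Ythdf3 peak. Of the 2642 peaks with a p-value, 31.1% were under 0.05. The median peak had a fitted change of 0.20, and 44.6% of peaks had a lower change than that of Ythdf3. From the pooled reads with the same scaling, the change was 0.16 with a counting interval from -0.28 to 0.60, which holds changes of 1.2-fold in either direction, so a change of that size was not detectable at this depth. The scaled ratio was close to the median peak's 0.33 in control and below the median peak's 0.73 after MA. Of all peaks, 46.3% had a lower ratio in control and 29.4% after MA.

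**Figure D3:**
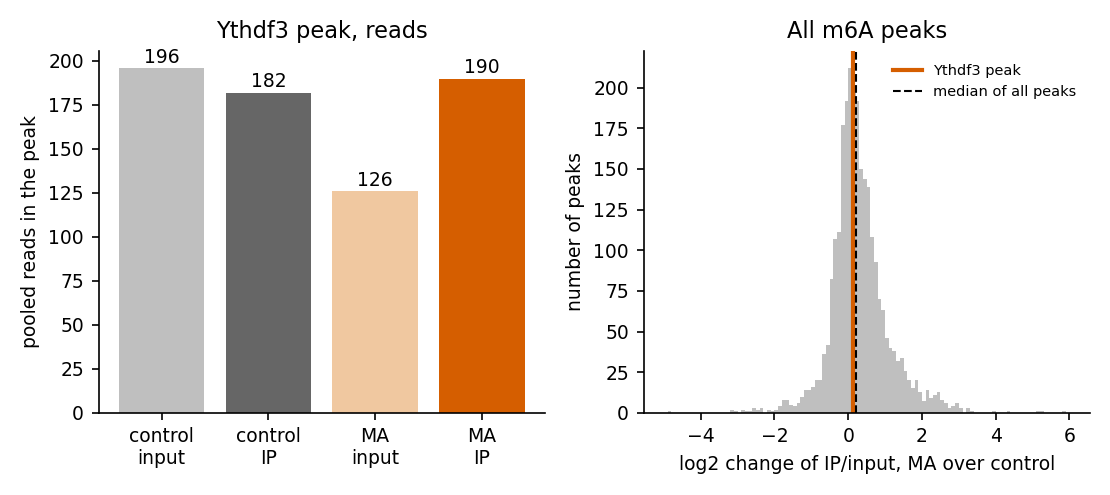
Left, reads in the Ythdf3 peak pooled within each of the 4 groups, 196, 182, 126 and 190, with no error bars since single libraries are not given. Right, histogram of the fitted log2 change of IP over input, MA over control, for all peaks, with the Ythdf3 peak at 0.13 (solid line) and the median peak at 0.20 (dashed line).

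The reads of the Ythdf3 peak were also set against the sums over all peaks. Its input reads made up 0.0679% of the input reads in all peaks in control and 0.0587% after MA, a log2 ratio of -0.21 with a counting interval from -0.53 to 0.11. The IP reads made up 0.0682% and 0.0528%, a log2 ratio of -0.37 with an interval from -0.66 to -0.08. The input interval holds 0. Since input reads in peaks hardly followed the mRNA changes across genes, as given above, and IP reads also depend on methylation, neither ratio is a second measure of the Ythdf3 mRNA.

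Readers act with other proteins and RNAs, and 6 lists of these were described at the same threshold. Of 87 tested genes, 11 were higher and 16 lower after MA, that is 31.0%, which lies between the 20.9% of all tested genes and the 37.8% of those at or above the lowest reader's level. Several of the 87 lay below that level, such as Meioc at 5.63, Cyfip2 at 19.9 and Mettl3 at 616 normalised counts, so they are not a like set for the 37.8%. The median log2 change over all 87 was -0.05. At an adjusted p of 0.05 by DESeq2, 16 of these genes passed, beside 15.3% of all genes with an adjusted value. Igf2, Lin28b and H19 had no adjusted value, so the 16 are not out of all 87. Among the 13 writer genes 2 were higher and 2 lower, 30.8%. Virma, a scaffold of the methyltransferase complex, fell by 0.30 on the log2 scale (adjusted p = 0.00784 by DESeq2) and Mettl14, the RNA-binding partner of the catalytic subunit, fell by 0.17 (adjusted p = 0.0583 by DESeq2). Rbm15b, which guides the complex to RNA, rose by 0.21, and Trmt112, a partner of several methyltransferases, rose by 0.24. Zc3h13, the most abundant writer mRNA listed with 5768 normalised counts, had a log2 change of -0.22 and did not pass. Of the 2 erasers, Alkbh5 rose by 0.14 ± 0.05 (SE) with an adjusted p of 0.0485 by DESeq2, and Fto, at -0.06 ± 0.07 (SE), did not pass.

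Of 21 other RNA-binding proteins whose binding has been linked to m6A, 5 were higher and 5 lower, 47.6%, beside 20.9% of all tested genes and 37.8% of those at reader level, and the median was -0.05. At an adjusted p of 0.05 by DESeq2, 8 of the 21 passed, against 15.3% of all genes with an adjusted value. Eif3h, a subunit of a translation initiation factor, rose by 0.32, Lrpprc, which binds mitochondrial and nuclear RNA, by 0.31 and Pabpc1, the cytoplasmic poly(A)-binding protein, by 0.23. Snd1, a nuclease-related RNA-binding protein, fell by 0.26, and Prrc2c, a stress granule protein, fell by 0.27. Eif3a, another subunit of the same initiation factor and the second most abundant mRNA of the list after Pabpc1, was at 0.03 ± 0.10 (SE).

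The deadenylation, decapping and decay machinery to which YTHDF proteins hand their targets had 2 higher and 3 lower of 26 tested genes, 19.2%, and a median of -0.04. That share stands beside 20.9% of all tested genes and 37.8% of those at reader level. Some of the 26, Meioc among them, lay below that level. At an adjusted p of 0.05 by DESeq2 1 of the 26 passed, against 15.3% of all genes with an adjusted value. Smg6, the endonuclease of nonsense-mediated decay, fell by 0.31. Cnot1, the scaffold of the deadenylase complex that YTHDF2 binds, fell by 0.10, and Ddx6, a helicase of decapping, fell by 0.12. Edc4 and Pan2, of the decapping and poly(A)-shortening complexes, rose by 0.22 and 0.20. Dcp1b, a decapping gene, was listed at 0.

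Among 14 partners of FMRP and HNRNPA2B1, 0 were higher and 3 lower, 21.4%, and the median was -0.11. Of all tested genes 9.98% were higher and 10.9% lower, 20.9% together, and of those at reader level 37.8% were called. At an adjusted p of 0.05 by DESeq2, 1 of the 14 passed, Cyfip1, against 15.3% of all genes with an adjusted value. The count of 0 is by the deposited DESeq2 test at an unadjusted p under 0.05. Cyfip1, which joins FMRP to the actin regulator WAVE, fell by 0.17. Drosha and Dgcr8, the nuclear microRNA processor, fell by 0.17 and 0.31, with an adjusted p of 0.172 and 0.132 by DESeq2. Hnrnpu and Hnrnpk, the most abundant of the list with 45188 and 25475 normalised counts, were at -0.10 ± 0.09 (SE) and 0.03 ± 0.05 (SE).

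The mRNAs known as clients of IGF2BP proteins held the largest changes among the called genes of these lists, with 1 higher and 3 lower of 11 tested genes, 36.4%, and a median of -0.10. The share was 20.9% of all tested genes and 37.8% of those at reader level. The 11 include Igf2, Lin28b and H19, which lay far below that level, so they are not a like set for the 37.8%. Fscn1, an actin-bundling protein, fell by 0.77 ± 0.08 (SE), to 0.588 of its control level. Actb, the cytoplasmic actin whose mRNA IGF2BP1 was first found to bind, fell by 0.31 ± 0.04 (SE). Hmga2, a chromatin protein of growing cells, rose 1.76-fold. Hdgf, second in abundance to Actb, was at 0.10 ± 0.09 (SE). Igf2, Lin28b and H19 had base means under 2, and Gap43 and Sox2 were listed at 0, so these classical clients were not measurable here.

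**Figure D4:**
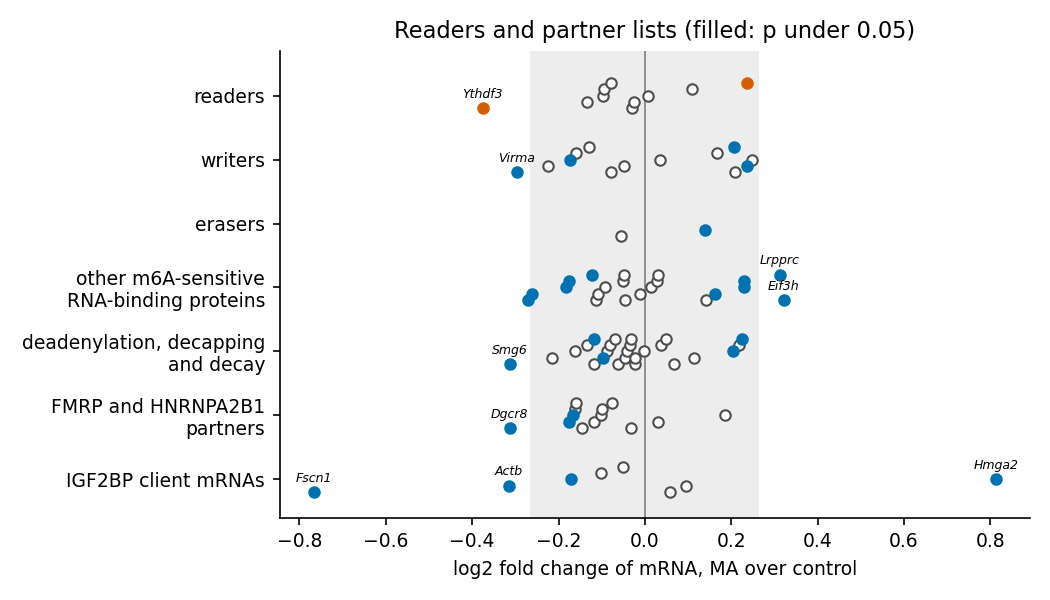
Fitted log2 fold change, MA over control, of the readers and of the genes of 6 partner lists with a base mean of at least 100, 1 point per gene, filled where the unadjusted p-value was under 0.05. The grey band is a change of less than 1.2-fold. Fscn1 and Hmga2 lie farthest from 0, and Ythdf3 is the one filled reader outside the band.

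These lists carried 21 m6A peaks on 17 genes. At a p-value under 0.05, 7 of the 21 peaks were higher after MA and 0 lower by the deposited exomePeak2 fit, beside 25.2% of all peaks higher and 5.94% lower. They were on Pcif1, which methylates the first base after the cap, with a log2 change of 1.62, on Cnot8 with 0.90, on Edc4 with 1.32 and 1.47, on Cyfip1 with 2.09 and on Hmga2 with 0.84 and 0.73. Both Hmga2 peaks missed an adjusted p of 0.05, at 0.101 and 0.134 from the exomePeak2 fit. The Cyfip1 peak rested on 10 control IP reads. The median change over all peaks of the table was itself above 0, at 0.20.

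The label of the cells was checked against marker genes. Of 11 neuronal markers 6 were listed at 0, Map2, Prox1, Nefm, Nefl, Snap25 and Dcx, and the highest were Syn1 at 710 and Tubb3 at 473 normalised counts. Of 6 fibroblast markers 5 were at 100 or more, with Col3a1 at 134804, the highest marker of any cell type tested. Astrocyte, microglia and oligodendrocyte markers reached at most 115, 303 and 48.0. Defining neuronal markers were thus listed at 0 or low. A listed 0 is not read as absence of the RNA, since Dcp1b, which most cells use, is listed at 0 too. Of the 6 fibroblast markers 4 fell after MA and 0 rose by the deposited DESeq2 test, also at an adjusted p under 0.05, with Col3a1 at -1.42 ± 0.04 (SE), Col1a1 at -0.94 ± 0.04 and Col1a2 at -0.45 ± 0.05 on the log2 scale. Their summed level was 487309.7 normalised counts in control and 259720 after MA. Of the 5 neuronal markers tested, 1 fell, Tubb3 at -0.40 ± 0.13 (SE). Of the 4 microglial markers tested 1 fell as well, Tmem119 at -0.72 ± 0.18 (SE), and no tested astrocyte or oligodendrocyte marker passed. Over all tested genes 9.98% were higher and 10.9% lower, and 15.3% of those with an adjusted value passed an adjusted p of 0.05. The part of these shifts in the reader changes was not tested.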

How the data were processed

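MeRIP-seq libraries of HT22 cells, 3 IP and 3 input per group, were the source of both tables. Per the study's methods and the submitters' processing notes, the authors used fastp on the reads, HISAT2 for alignment to mm10, StringTie for gene levels and DESeq2 for the test. Peaks were called and compared with exomePeak2 on a Poisson model. Versions are not given in the sources used here. The expression table deposited by the authors holds a base mean (a signal of counts normalised by size factors), a log2 fold change with its standard error, the Wald statistic (a score), and for each gene a p-value with its adjusted form. The peak table deposited by the authors holds read counts pooled within each group, log2 ratios of IP to input, their fitted change and p-values. These comparison columns were used because the description of these genes rests on them. Which libraries entered the expression fit is not stated, and the spread measured by its p-values may be technical, since the labels do not say that the libraries came from separate cultures.

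The design had planned a count model for values of single libraries, and none are in these tables, so no gene was refitted. The numerator of the expression fold change is not named, and its sign was reversed for all genes, a choice made with values known. Intervals at 95% were taken as the fold change ± 1.96 standard errors. The error of a level was taken as that of the fold change divided by 2. Levels implied for each group assume equal group sizes. The coefficient of variation was derived from the fitted standard error, the level and an assumed 3 libraries in each group. A counting p-value of the Ythdf3 peak came from the pooled reads under a normal approximation of log ratios. This and the centred p-values were run on data simulated under the same assumptions. The simulated peak reads held no spread between libraries, so that run cannot show how the counting p-value behaves with such spread. Genes were called at an unadjusted p under 0.05. In each partner list the called genes, up to 5 of smallest p, and the 2 of highest base mean were named. The values of 1 listed gene are not reported here. The members and lists were chosen with earlier results of these data known. Depth of single libraries is unknown. The number of columns of single libraries left out was 0.

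Gene positions, transcript lengths and 50-base stretches come from GENCODE M21, transcript starts and genome sequence from RefSeq GRCm38.p6, the assembly of mm10. Computation used Python 3.11.15, pandas 2.3.3, scipy 1.17.1 and Biopython 1.88. Alternatives were the adjusted p-value, fold thresholds, centring, level and read minimums, counting errors and, added after the data were seen, the sign as deposited.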

Additional observations from a re-analysis of the deposited data

How the results depend on the processing

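No paired analysis was possible because the tables hold no values of single libraries. For the same reason leaving out a library and other size factors could not be run. Of the 10 readers, 2 passed an unadjusted p of 0.05, and 2 also with a base mean of at least 100 and after centring on the median of all genes. The count was 1 at more than 1.2-fold, 0 at more than 1.5-fold and 0 at an adjusted p of 0.05. No reader changed direction under these settings. With the sign as deposited, an alternative added after the data were seen, all readers turn by construction, to 0.031 for Ythdf1, 0.10 for Ythdf2, 0.38 for Ythdf3, 0.078 for Ythdc1, 0.025 for Ythdc2, 0.13 for Igf2bp1, -0.24 for Igf2bp2, -0.0079 for Igf2bp3, 0.10 for Hnrnpa2b1 and -0.11 for Fmr1. The change at the Ythdf3 peak, 0.13 as fitted, was 0.16 from pooled reads and turned to -0.21 when centred on the median of all peaks, since that median, 0.37 on the same pooled-read scale, was above it. It passed no threshold under any of these. Of the 87 partner genes, 27 were called, 28 after centring, 16 at an adjusted p of 0.05 and 9 at more than 1.2-fold. Over all tested genes 20.9% were called and 13.9% at more than 1.2-fold, and 15.3% of those with an adjusted p passed. Counting error alone gave the peak's change a 95% interval of ± 0.44 on the log2 scale.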
